A study of Mus musculus with 8 samples.

Results

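The sites described here are the DNase I hotspots of mouse mammary epithelial cells that carry a dominant-negative form of the chromatin remodeler Chd4, compared between the induced and the repressed state of that protein. Hotspots of the 2 lists of the DNCHD4 line were merged where they overlapped by at least 1 bp, which gave 84480 sites. Merging all 8 lists of the study in the same way gave 99999. Each site was valued, per library, by its highest peak density (MaxD, the highest density of sequenced DNase I cuts in the hotspot), as scaled by the authors. Ratios divide the induced by the repressed value, and sites count as changed from 2-fold on.

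All cells were 3134 cells, an established mouse mammary epithelial line. In the DNCHD4 line, mouse Chd4 with a triple FLAG tag and a lysine-to-cysteine mutation was integrated, by a retroviral vector, into 3134 cells that hold the tetracycline transactivator. The repressed library (DNCHD4 with tetracycline) and the induced library (DNCHD4 without it) were taken after 48 hours in medium with charcoal-treated serum. The parental pair, 3134 with and without tetracycline, holds no dominant-negative protein and serves as the background of tetracycline removal. The labels do not say whether the parental libraries come from cells with the transactivator, nor whether the DNCHD4 line is 1 clone. Libraries with and without tetracycline from the DNBrg1 line (dominant-negative Brg1) and the DNSnf2h line (dominant-negative Snf2h) were used to ask where else a DNCHD4 site was listed. Each group has 1 library, so replicates cannot back any of the differences, and p-values are not reported. Intervals are at 95%, binomial on shares and on tags, and cover counting error only.

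Chd4 is the ATPase of the NuRD complex, which joins nucleosome remodeling with histone deacetylation. NuRD is best known as a repressor that closes chromatin at enhancers and promoters, and it is also found at active regulatory elements. DNase-seq reports where chromatin is open, since DNase I cuts most readily where nucleosomes are absent or displaced by bound factors. Hotspots are given here by position on build mm9. No gene was assigned to a site, because the annotation at hand is of another build.

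The induced list held 78093 hotspots and the repressed list 48888, but the lists did not start at the same density. The lowest hotspot had a density of 5.09 (26 tags) in the induced and 8.05 (45 tags) in the repressed list. Over the 8 libraries the lists held 24890 to 78093 hotspots with a lowest value of 26 to 45 tags. A region absent from a list may lie below that list's starting density, may have failed another filter, or may have been removed by the authors. It need not be a region without cuts.

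Open chromatin in DNCHD4 cells moved in both directions. Of the 84480 sites, 40936 (48.5%) were listed in both states, 36209 (42.9%) only after induction and 7335 (8.68%) only before it. For a site listed once, the start of the list that lacks it stood in for the missing value. Its ratio is a bound only if the missing value lies below that start, which was not tested. By this rule 6534 sites (7.73%) were higher and 8190 (9.69%) were lower after induction. Once-listed sites counted as higher from a density of 16.1 and as lower already from 10.2. In parental cells 0.681% of 40101 sites were higher and 9.69% lower. With a common starting density for both lists, DNCHD4 had 6534 higher and 4636 lower sites, and parental cells 273 and 2757. Among the sites listed in both DNCHD4 libraries, 2426 (5.93%) were higher and 3218 (7.86%) lower, and 35292 (86.2%) differed by less than 2-fold. The parental shares among sites listed in both states were 0.525% and 8.69%.

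The parental background differed in its centre as well as its spread. The median log2 ratio of sites listed in both libraries was 0.03 (SD 0.68 across sites) in DNCHD4 and -0.40 (SD 0.46) in parental cells. With each line's median set to 0, 2.6% of parental sites were higher and 2.31% lower, beside 7.21% and 10.2% in DNCHD4. Among sites listed in both states these shares were 2.08% and 1.83% in parental and 5.37% and 8.5% in DNCHD4 cells. Around the threshold, 774 DNCHD4 sites listed in both libraries had a rise of 2 to 2.2-fold and 1172 one of 1.8 to 2-fold. For falls the numbers were 926 and 1264.

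**Figure D1:**
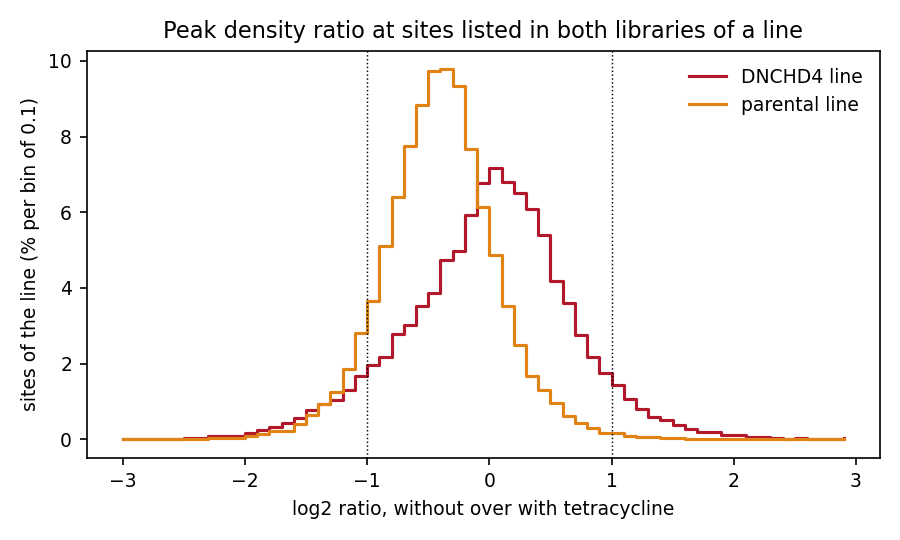
Distribution of the log2 ratio of peak density (x axis, without over with tetracycline) over the sites listed in both libraries of a line, as percent of these sites per bin of 0.1 (y axis), with ratios beyond 3 set to 3. Dotted lines mark 2-fold; the DNCHD4 curve is centred at 0.03 and is wider than the parental curve, which is centred at -0.40.

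The greatest rises among sites listed in both states started from weak hotspots. On chromosome 2 from 34760064 to 34761183, density went from 10.4 to 121, which is 11.6-fold (8.89 to 15.5). Parental cells had 16.7 with and 42.7 without tetracycline there, so this site was also more open in parental cells without tetracycline. On chromosome 7 from 38896816 to 38897652, density went from 11.6 to 134, also 11.6-fold (8.95 to 15.1), beside parental values of 13.3 and 47.6. The chromosome 11 site from 35761439 to 35762613 went from 20.9 to 197, which is 9.39-fold (7.75 to 11.5). That site rose in parental cells, from 14.3 to 98.9, and in DNSnf2h cells, from 8.03 to 52.4. The other 3 of the 6 greatest rises, on chromosomes 6, 11 and 3 from 144277752, 33042696 and 94175408, were 9.54-fold, 9.52-fold and 9.39-fold. At the chromosome 6 and chromosome 11 sites the parental list held a hotspot without tetracycline, at 22.7 and 23.9, and none with it. At the chromosome 3 site parental density went from 14.6 to 25.7. In DNBrg1 cells, where density as deposited was lower without tetracycline at most sites, 4 of these 6 sites were listed in both states, and at each of the 4 the value without tetracycline was the lower one. The chromosome 11 site from 35761439 went the other way, listed in DNBrg1 cells only without tetracycline, at 35.5, where the list with tetracycline starts at 16.4.

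The greatest falls among sites listed in both states started from hotspots with repressed densities of 64.2 to 255. On chromosome 3 from 55251584 to 55252520, density went from 124 to 14.5, which is 8.53-fold lower (6.70 to 10.99). Parental cells went from 96.1 to 21.6 and DNSnf2h cells from 54.2 to 16.9, while DNBrg1 cells listed the site at 44.5 with tetracycline and not without it. On the same chromosome from 83543860 to 83544856, density went from 255 to 33.3, 7.65-fold lower (6.52 to 9.03). There the parental values were 153 and 27.0 and the DNSnf2h values 130.0 and 23.6, and neither DNBrg1 library listed the site. On chromosome 1 from 62597845 to 62598589, density went from 64.2 to 8.62, 7.45-fold lower (5.44 to 10.4), beside 35.3 and 14.7 in parental cells. The remaining 3 of these 6 sites lay on chromosomes 17, 5 and 13, from 84392041, 107515989 and 6613069, and were 7.37-fold, 7.18-fold and 7.15-fold lower. In parental cells these 3 went from 64.8 to 21.6, from 67.6 to 21.9 and from 64.5 to 16.0. All 6 sites were lower without tetracycline in parental and DNSnf2h cells too.

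The sites listed only after induction that stood out most had densities of 70.3 to 135. Here the ranking compared a site with the weakest hotspot that the repressed list held within 50 kb, a stricter reference than the lowest of the whole list. On chromosome 8 from 13464035 to 13464969 the induced density was 104, which is 10.5 times the local lowest value of 9.84. Parental and DNSnf2h cells listed this site without tetracycline, at 31.7 and 19.5, and not with it. On chromosome 12 from 29239526 to 29240342 the induced density was 83.2, 10.1 times the local lowest of 8.23. On chromosome 3 from 54218415 to 54219421 it was 94.6, 9.28 times the local lowest of 10.2. On chromosome 2 from 166457916 to 166458696 it was 70.3, 8.73 times the local lowest of 8.05. None of the 6 other libraries listed the last 3 sites. The other 2 of the 6 sites ranked highest, on chromosomes 5 and 6 from 109981964 and 137095292, stood 16.3 and 10.7 times above their local lowest. Parental and DNBrg1 cells listed the chromosome 5 site without tetracycline, at 15.4 and 15.6, and not with it. The DNBrg1 list with tetracycline starts at 16.4. The chromosome 6 site was in none of the 6 other libraries.

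The sites listed only before induction that stood out most had densities of 48.7 to 74.4 and were listed in other lines as well. On chromosome 18 from 73762917 to 73763822 the repressed density was 74.4, which is 8.64 times the lowest value of 8.62 that the induced list held within 50 kb. Parental cells went from 75.3 to 20.1 and DNSnf2h cells from 25.4 to 12.9. On chromosome 11 from 22743638 to 22744417 the density was 56.7, 7.06 times the local lowest of 8.03, beside parental values of 46.5 and 28.1. On chromosome 14 from 9041152 to 9041894 it was 52.4, 7.04 times the local lowest of 7.44, beside 49.6 and 18.8. The next 3, on chromosomes 3, 11 and 6 from 115897417, 100110070 and 108627570, stood 6.72, 6.34 and 6.22 times above the local lowest. All 6 were listed with tetracycline in parental and in DNSnf2h cells. Over all once-listed calls, the local reference left fewer changes. Of 3782 higher sites with a repressed hotspot within 50 kb, 1398 (37.0%) stood at least 2-fold above the weakest of these. For lower sites the count was 753 of 4926 (15.3%).

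Changed sites that were listed in both states were of ordinary width. The median width was 729 bp (quartiles 646 to 906) for higher sites, 790.5 bp (698 to 960) for lower sites and 743 bp (627 to 1006) for sites under 2-fold. Sites listed once were narrower. Those called higher had a median of 593.5 bp (537 to 660), and those called lower 565 bp (502 to 625). At equal density the once-listed sites were still somewhat narrower. Between densities of 16.1 and 32.2, sites listed only after induction had a median width of 583 bp, against 623 bp for sites listed in both states. For sites listed only before induction the values were 616 and 659 bp. Between 8.05 and 16.1 they were 480 against 517 bp after and 515 against 552 bp before induction.

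Width followed height in both lines. At the 39594 sites that were 1 hotspot in each list, the width ratio and the density ratio had a Pearson correlation of 0.57 across sites, which share their libraries. Where density fell by 4-fold or more (146 sites), the median width went from 821.5 to 549.5 bp, a median log2 width ratio of -0.58. Where density rose by 4-fold or more (147 sites) it went from 568 to 790 bp, at 0.48. At a log2 density ratio of 0 to 0.5 the median log2 width ratio was -0.003 in DNCHD4 and 0.05 in parental cells. Parental hotspots showed the same course, with -0.39 at a log2 density ratio of -2 to -1.5, where DNCHD4 had -0.48.

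Hotspot shape changed little. Shape is given as the ratio of mean to peak density (AveD/MaxD), which is lower for a sharp peak on a broad base. Over the 39594 sites the median change of this ratio was -0.002 (SD 0.042 across sites), and in parental cells it was -0.001 (SD 0.037). Sites that fell 4-fold or more had a median change of 0.008 and sites that rose as much one of -0.012. By class, the median ratio in the library where the site was stronger was 0.280 for higher and 0.275 for lower sites listed in both states. For once-listed sites it was 0.299 and 0.290.

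**Figure D2:**
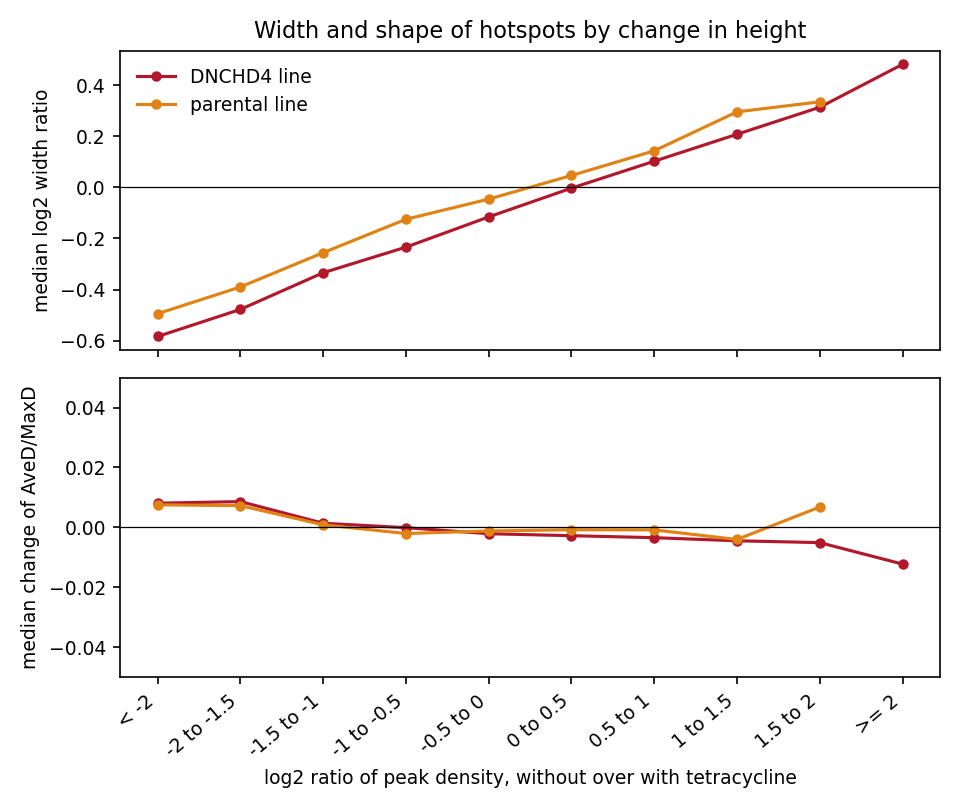
Median log2 ratio of hotspot width (upper panel, y axis) and median change of AveD/MaxD (lower panel, y axis) by the log2 ratio of peak density (x axis, bins), for sites of 1 hotspot in each list of the DNCHD4 or the parental line, in bins of at least 20 sites. Width falls and rises with height in both lines, from -0.58 to 0.48 in DNCHD4, while the median change of AveD/MaxD stays between -0.012 and 0.009 in DNCHD4.

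A few sites changed in width with little change in height, and a few of the widest sites changed in height. Among 16022 single-hotspot sites with a log2 density ratio within 0.32 either way, 16 were at least 2-fold wider and 89 at least 2-fold narrower after induction. On chromosome 17 from 71104091 to 71105666 the hotspot went from 669 to 1576 bp while density went from 82.8 to 91.7, and AveD/MaxD went from 0.41 to 0.27. On chromosome 12 from 25776626 to 25778547 the width went from 690 to 1922 bp at densities of 29.7 and 35.6. On chromosome 4 from 47049321 to 47050733 it went the other way, from 1413 to 525 bp, at densities of 21.5 and 25.3. The other sites selected by this rule had densities of 7.44 to 15.5, close to where the lists start. On chromosome 13 from 115248257 the width went from 764 to 1901 bp, and on chromosome 1 from 192620990 it went from 252 to 608 bp. On chromosomes 3, 19 and 5, from 53008207, 3666682 and 121402227, it went from 919 to 283, from 995 to 317 and from 928 to 305 bp.

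The widest higher site, on chromosome 17 from 39979771 to 39985945, spanned 6175 bp and went from 1832 to 4689, 2.56-fold (2.50 to 2.62). It had the highest density of the induced DNCHD4 list, of both parental and both DNBrg1 lists and of the DNSnf2h list without tetracycline. It lies alone, with no other hotspot of either list within 50 kb, and it was higher without tetracycline in every line, at 2126 and 4129 in parental, 1802 and 5222 in DNBrg1 and 567 and 1459 in DNSnf2h cells. The next widest, on chromosome 15 from 50718611 to 50722464, went from 27.2 to 56.8, 2.09-fold (1.71 to 2.56), while parental cells went from 31.6 to 20.6. On chromosome 10 from 13684157 to 13687874, density went from 19.5 to 50.7, 2.60-fold (2.07 to 3.28), beside parental values of 18.3 and 22.7. On chromosome 15 from 101930041 to 101933562 it went from 62.3 to 127, 2.05-fold (1.8 to 2.34), beside 69.8 and 69.5. These 3 sites on chromosomes 15 and 10 were 2 or 3 hotspots before and 1 hotspot after induction. The 4 widest lower sites spanned 2554 to 2881 bp and were 2.03-fold to 2.45-fold lower. They lie on chromosomes 16, 7, 4 and 16, from 37788296, 120289956, 63060046 and 24433354. At all 4, parental density was lower without tetracycline as well, from 41.5 to 31.4, from 167 to 102, from 49.6 to 19.1 and from 59.5 to 26.0.

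Strong sites changed least. To measure strength outside the compared libraries, the 34186 DNCHD4 sites listed in parental cells with tetracycline were ranked by their parental density and split into 10 groups of about equal size. In the weakest group (parental density 13.0 to 15.2), 8.83% (7.93 to 9.83) were higher and 19.4% (18.1 to 20.7) lower. In the strongest group (139 to 2126) the shares were 0.175% (0.0805 to 0.382) and 4.24% (3.62 to 4.97). Lower sites outnumbered higher ones in each group when once-listed sites were counted. The parental list used for ranking held 1594 of the 4972 once-listed lower sites, but 154 of the 4108 once-listed higher sites. A once-listed site also counted as lower from a density of 10.2 and as higher only from 16.1. The part of this choice of sites and bounds in the surplus was not tested. The SD of the log2 ratio went from 0.70 in the weakest to 0.44 in the strongest group. Weak sites have fewer tags and can drop off a list, and the part of either in these shares was not tested. Among sites listed in both DNCHD4 libraries the order turned in the 2 weakest groups, with 9.34% higher against 5.68% lower and 8.34% against 6.56%. The share of lower sites had another course in that subset, with 5.68% in the weakest, 13.4% in the sixth and 4.16% in the strongest group. The share of higher sites fell from 9.34% in the weakest to 0.176% in the strongest group as before.

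**Figure D3:**
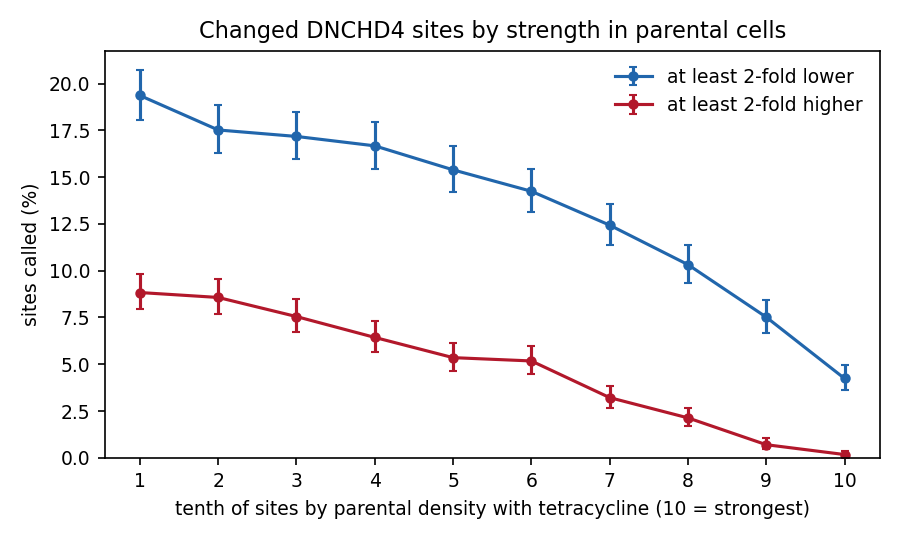
Share of DNCHD4 sites called at least 2-fold higher or lower (y axis, percent, with 95% Wilson intervals) in 10 groups of the sites by their density in parental cells with tetracycline (x axis). Both shares are smallest in the strongest group, at 0.175% and 4.24%, and lower sites outnumber higher ones in all 10 groups, which turns in the 2 weakest among sites listed in both states.

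The weakest sites listed only after induction often lay far from any hotspot of the repressed list. Of the 36209 sites listed only after induction, 18055 (49.9%) had a density under 8.05, where the repressed list does not reach. Of those 18055, 60.5% (59.8 to 61.3) had no hotspot of the repressed list within 50 kb. From 8.05 to 16.1 the share was 16.1%, and from 16.1 to 32.2, where a site counts as higher, it was 8.10%. Sites listed in both states had 21.1%, 8.84% and 5.54% in the same ranges of induced density. Sites listed only before induction had 5.47% from 8.05 to 16.1 and 1.85% from 16.1 to 32.2, against 10.5% and 5.45% for sites listed in both states in the same ranges of repressed density. Between 8.05 and 32.2, then, sites listed only after induction lacked a repressed hotspot nearby more often, and sites listed only before induction less often, than sites listed in both. From 64.4 on, the share was 3.85% (2 of 52) for sites listed only after induction and 5.08% for sites listed in both. For sites listed only after induction, the count uses the list that lacks them. Between 8.05 and 32.2 other lists did not show their gap. Under 8.05 they did, with medians of 2 induced and 0 parental hotspots within 50 kb, against 3 and 1 for sites listed in both. From 8.05 to 16.1, sites listed only after induction and sites listed in both had the same median of 5 induced hotspots and of 2 parental hotspots within 50 kb. From 16.1 to 32.2 the medians were 6 and 6 induced and 4 and 3 parental hotspots. From 8.05 to 16.1 of repressed density, sites listed only before induction had medians of 5 induced and 3 parental hotspots. Sites listed in both had 5 and 2. In the range from 16.1 to 32.2 these medians were 7 and 5, against 6 and 3. The numbering of the deposited lists has gaps, where hotspots may have been taken out before deposit. A number was missing in the repressed list at the position of 60.3% of the sites listed only after induction and not called, and of 20.8% of those called higher. In the induced list one was missing at 1.65% of the sites listed only before induction and called lower. The part of these gaps in the counts was not tested.

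**Figure D4:**
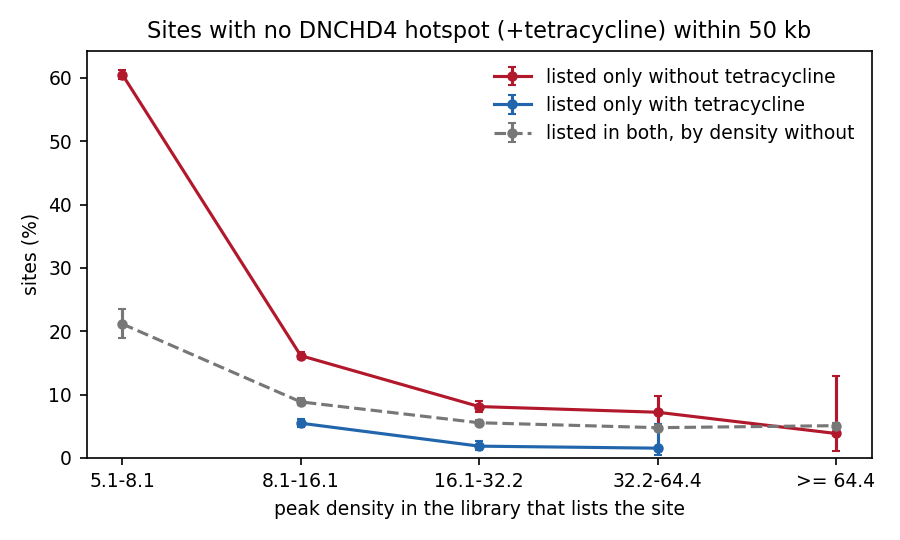
Share of DNCHD4 sites with no hotspot of the repressed library within 50 kb (y axis, percent, with 95% Wilson intervals) by peak density in the library that lists the site (x axis, 5 ranges), for sites listed in 1 or in both states, in groups of at least 20 sites. The weakest sites listed only after induction stand at 60.5%, against 21.1% for sites of that density listed in both states.

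Among sites listed in both states, called sites had no more hotspots around them than others. The median numbers of repressed hotspots within 50 kb were 4 for higher, 4 for lower and 5 for other sites. Over all sites the medians were 5, 5 and 3, but the last group holds the 32101 sites listed only after induction that are too weak to be called, with a median of 1. Among sites listed in both states, the share called higher was 7.53% (200 of 2657) with no repressed hotspot within 50 kb and 4.58% (219 of 4780) with 10 to 20 of them. The share called lower was 6.51% and 7.41%.

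Changed sites had neighbours of their own kind more often than other sites had. Of the sites within 50 kb of a higher site, 13.5% were higher, against 9.39% around sites not called. Around lower sites 16.8% of the neighbours were lower, against 11.6% around sites not called. Around higher sites 11.5% of the neighbours were lower, about the share around sites not called. With sites listed in both states at the centre, the shares were 12.4% against 10.5% for higher and 18.1% against 13.2% for lower neighbours. Neighbours of the other kind were then less common than around sites not called. Lower neighbours made up 11.1% against 13.2% around higher sites, and higher neighbours 7.77% against 10.5% around lower sites. Each pair of neighbours is counted from both sides, and neighbours share a region, so these are descriptions.

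The other lines listed the 2 classes at different rates. Of the lower sites listed in both DNCHD4 libraries, 93.8% (92.9 to 94.5) were listed in parental cells with tetracycline, as were 61.5% (59.5 to 63.4) of the higher sites and 78.2% (77.8 to 78.7) of those under 2-fold. In parental cells without tetracycline the shares were 77.3%, 78.9% and 76.4%. The DNSnf2h library with tetracycline listed 85.3% of the lower, 17.8% of the higher and 49.1% of the other sites, and the DNSnf2h library without it 56.7%, 31.9% and 48.5%. In the DNBrg1 line the shares with tetracycline were 67.5%, 46.6% and 65.4%, and without it 40.02%, 57.3% and 64.4%. In each of the 3 lines, then, lower sites were listed less often and higher sites more often without tetracycline. Sites listed once in DNCHD4 cells were often absent from all other lists. Of the 4108 called higher, 72.1% (70.7 to 73.5) were in none of the 6 other libraries, as were 44.6% (43.2 to 46.0) of the 4972 called lower and 90.3% of the 32101 weak sites listed only after induction and not called.

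At equal strength in parental cells, the 2 classes still differed in their listing in lines that had not been induced. Sites were split into 5 groups of about equal size by parental density. In the middle group (26.4 to 43.4), the DNSnf2h library with tetracycline listed 85.6% (83.3 to 87.6) of the 1013 lower sites, 51.7% (50.3 to 53.0) of the 5464 sites not called and 32.5% (27.9 to 37.5) of the 360 higher sites. In the weakest group (13.0 to 17.98) the shares were 37.0%, 22.4% and 9.41%, and in the second 60.2%, 35.9% and 14.4%. In the fourth they were 98.2%, 74.0% and 55.2%. The DNBrg1 library with tetracycline did not show this order. It listed 66.1% (63.2 to 69.0) of the lower, 85.3% (84.4 to 86.2) of the other and 80.3% (75.9 to 84.1) of the higher sites in the middle group, and 22.4%, 38.4% and 38.2% in the weakest. In each of the 4 weaker groups, the libraries with tetracycline listed lower sites more often in DNSnf2h and less often in DNBrg1 than sites not called. The DNSnf2h library without tetracycline did not show this. It listed 11.9% of lower against 18.7% of other sites in the weakest group and 24.2% against 29.2% in the second. In the middle group the shares were 49.8% and 49.1%, and in the fourth 82.4% and 80.5%. The classes differed before induction as well, since the ratio uses that density. In the middle group the median repressed DNCHD4 density was 42.2 at lower, 34.2 at other and 28.3 at higher sites, and the part of this in the DNSnf2h order was not tested. Each of these shares rests on 1 library, and the DNSnf2h library with tetracycline has the shortest list of all, with 24890 hotspots.

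**Figure D5:**
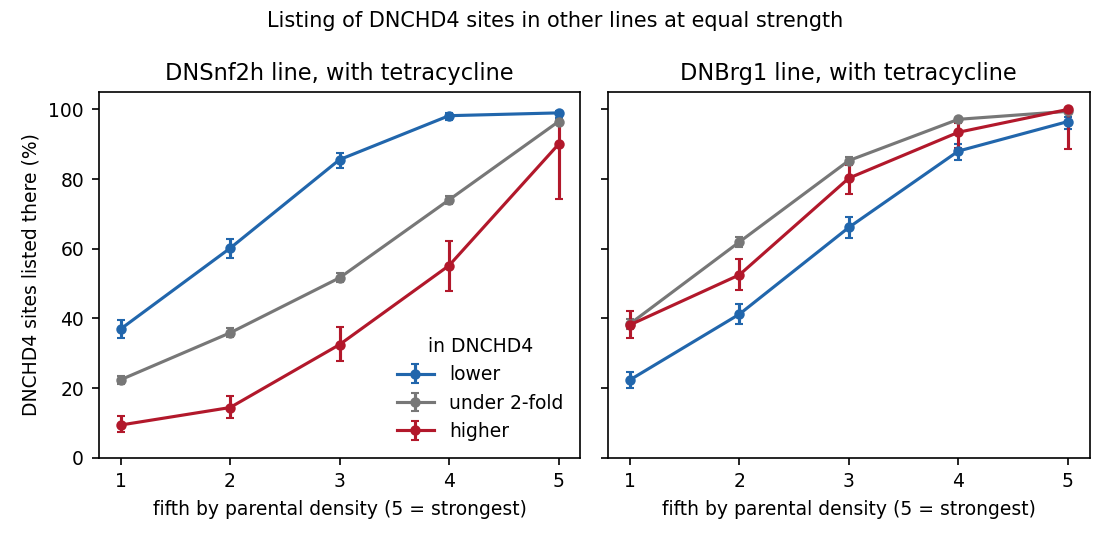
Share of DNCHD4 sites listed in the DNSnf2h (left) and the DNBrg1 (right) library with tetracycline (y axis, percent, with 95% Wilson intervals), by group of parental density (x axis), for sites lower, higher or not called in DNCHD4. In the middle group the DNSnf2h library listed 85.6% of lower, 51.7% of other and 32.5% of higher sites, and the DNBrg1 library 66.1%, 85.3% and 80.3%.

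In the middle group of parental strength, the classes differed little in parental width and shape. In the middle group the median parental hotspot was 681 bp wide at lower, 689.5 bp at higher and 669 bp at other sites, with AveD/MaxD at 0.287, 0.282 and 0.299. In the 2 stronger groups higher sites were wider than lower ones in parental cells, at 816 against 767 bp and at 987.5 against 914 bp (30 and 402 sites). Their AveD/MaxD was lower, at 0.261 against 0.273 and at 0.230 against 0.253. The median number of parental hotspots within 50 kb in the middle group was 3 at lower and 4 at higher and other sites.

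The same sites moved with tetracycline in the other lines, in part. Taken relative to the median of each line, the parental log2 ratio had a median of -0.51 at the 2455 lower and 0.41 at the 1378 higher DNCHD4 sites listed in both states in both lines, and 0.02 at sites under 2-fold. In DNSnf2h cells the medians were -0.71, 0.50 and 0.06, and in DNBrg1 cells -0.72, 0.19 and 0.02. These values cover only sites listed in both states of the line in question. That left 1753 lower and 330 higher sites in DNSnf2h, and 1192 and 941 in DNBrg1 cells. Of the lower sites so covered, 87.3% were below the median ratio of the parental line, 85.9% below that of DNBrg1 and 89.8% below that of DNSnf2h. The median ratios of the parental, DNBrg1 and DNSnf2h lines were -0.40, -0.64 and -0.02. Across the 28479 sites listed in all 4 DNCHD4 and parental libraries, the DNCHD4 and parental log2 ratios had a Pearson correlation of 0.47 and a Spearman correlation of 0.40. The points share their libraries, so this describes these 4 libraries.

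Subtracting the parental change left part of the DNCHD4 change. With both lines centred, 944 of 2650 lower sites (35.6%) and 527 of 1246 higher sites (42.3%) still differed at least 2-fold from the parental change in the same direction. As deposited, the numbers were 270 of 2455 (11%) and 972 of 1378 (70.5%), so the balance between directions turned with the scaling of the parental pair. These sites were picked by the DNCHD4 ratio, which is itself part of the difference. A remaining difference is thus partly set by that choice. Over all 28479 sites, the centred difference was at least 2-fold higher at 1137 and lower at 1658 sites. As deposited it was so at 3932 and 360 sites. Parental cells fell at least 2-fold, after centring, at 348 of the lower sites, and rose at least 2-fold at 241 of the higher ones. As deposited these counts were 1024 and 102.

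Sites open in every library that kept their density in the other lines seldom changed in DNCHD4 cells. Of 12595 sites listed in all 8 libraries, 959 had a log2 ratio within 0.32 either way in each of the other 3 lines, as deposited. In DNCHD4 cells these 959 had a median log2 ratio of 0.14, with 3 sites (0.313%) called higher and 0 called lower. Over all 12595 sites the shares were 1.67% and 7.23%. Since the parental and DNBrg1 medians lie below 0, sites flat as deposited are high for their line. With all lines centred, 1539 sites were flat in the other 3 lines, and 4 (0.260%) of these were higher and 24 (1.56%) lower in DNCHD4, beside 1.51% and 7.87% of all 12595. The direction of the few changes thus turned with the scaling. The sites named next are from the 959. The highest, on chromosome 5 from 138186597 to 138187938, went from 97.5 to 254, 2.60-fold (2.35 to 2.88), and widened from 957 to 1342 bp. It had 138 and 131 in parental, 100.2 and 81.4 in DNBrg1 and 18.1 and 19.1 in DNSnf2h cells. The next site, on chromosome 14 from 48268519 to 48269870, went from 45.8 to 101, 2.2-fold (1.89 to 2.57), beside parental values of 41.2 and 37.8. On chromosome 2 from 32582691 to 32583498 it went from 47.8 to 98.3, 2.06-fold (1.77 to 2.40), beside 54.9 and 48.4. The fourth, on chromosome 17 from 68345234 to 68345941, stood just under the threshold at 24.9 and 49.5. Of the 959, the site with the lowest ratio lies on chromosome 3 from 95467679 to 95468696, with 61.7 before and 30.9 after induction and parental values of 44.3 and 37.1. The next lowest lie on chromosomes 2, 8 and 9 from 60663555, 125546490 and 88267629, where density went from 27.0 to 14.1, from 38.6 to 20.4 and from 83.2 to 46.2.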

How the data were processed

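DNase-seq was done on 8 libraries, 1 per group, with groups taken from the labels. Per the submitters' processing notes, reads were processed with CASAVA 1.6 on build mm9. The sources used here do not name the hotspot caller or its filters. The deposited hotspot lists, 1 for each library, give a peak and a mean density per hotspot, which per the file headers are signal (coverage density) values. The values show a scaling factor for each library, and its target is not stated. The lists also hold the authors' z-score (a score) and p-value per hotspot. Both were deposited by the authors and were not used in any comparison.

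Within a library, 100% of peak densities were whole multiples of 1 step within 0.05 tags, and tags were taken from that step. Total depth is unknown. The number of tags at a site limits its precision, and the median hotspot of the libraries had 56 to 126 tags. No molecular identifiers are recorded in the labels, so intervals cover counting error only. Ratio intervals are exact binomial intervals on tags, and intervals on shares are Wilson intervals.

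Hotspots within 50 kb were counted from site centre to hotspot centre, leaving out the site's own. Named sites were picked by fixed rules: the 6 greatest ratios each way among sites in both lists, the 6 highest once-listed sites each way against the local lowest density with at least 3 hotspots of the other list near, the 4 widest changed sites each way, the 4 extremes each way among sites flat in other lines, and the 4 extremes of width each way at steady height. Clusters of more than 20 hotspots within 50 kb (145 sites) and once-listed sites at a missing number of the other list were left out of these. The sites, lists and rules were chosen with earlier results of these data known.

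Alternatives covered scaling, fold threshold, merging, the value given to absent sites, AveD as the value, stricter lists, dense clusters, numbering gaps and the window. A list of gene groups planned for mm9 promoters was not used here. Calling was tested on simulated data with 200 sites changed 4-fold. For DNCHD4, with 84480 sites, 100% were recovered and 0.00949% of unchanged sites were called. The changed sites were drawn only from strong sites, well above the start of both lists. The simulated lists shared their hotspot borders and held counting error only. The test therefore checks the calling step for strong sites and gives no error rate for the real lists. The tools were Python 3.11.15, scipy 1.17.1, matplotlib 3.10.9, pandas 2.3.3 and numpy 2.4.6.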

Additional observations from a re-analysis of the deposited data

Results flagged for a closer look

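The median log2 ratio of sites listed in both libraries lay on opposite sides of 0 in the 2 lines, at 0.03 in DNCHD4 and -0.40 in parental cells. Each value rests on 1 library a side and the target of the authors' scaling is not given, so the difference was not tested. After centring, 2 sites were called higher in DNCHD4 and lower in parental cells, and 3 sites the reverse, among 28479 sites listed in all 4 libraries. As deposited these counts were 21 and 2. These opposite movements were not tested either. Sites called in both lines with 1 direction numbered 241 higher and 348 lower after centring, and 102 and 1024 as deposited.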

How the results depend on the processing

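No paired analysis was possible because each group has 1 library and the numbers in the titles follow the tetracycline state. For the same reason no replicate could be left out. Counts of changed sites followed the fold threshold and the treatment of once-listed sites. The DNCHD4 count of higher sites, 6534, was 15276 at 1.5-fold, 1853 at 3-fold, 2426 over sites listed in both states, 3824 with the local bound, 36781 with AveD as the value and 3314 with stricter lists. The count of lower sites, 8190, was 14847, 2458, 3218, 3971 and 4810 under the same settings without AveD, and 4636 with a common starting density. The parental count of higher sites, 273, was 1098 at 1.5-fold, 48 at 3-fold, 154 in both lists, 180 with the local bound, 5304 with AveD, 139 with stricter lists and 1043 after centring. The parental count of lower sites, 3886, was 13259, 457 and 2550 for the first 3 of these, 8592 with AveD, 2260 with stricter lists and 926 after centring. AveD gives no bound for a once-listed site, since the starts used here are peak densities.

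Lower sites outnumbered higher ones in DNCHD4 under 10 of 13 settings. Higher ones did so at 1.5-fold (50.7% of changed sites), with a common starting density (58.5%) and with AveD (77.2%), beside 44.4% as reported. The share of all higher sites listed in parental cells, 42.7%, was 45.1% at 1.5-fold, 41.1% at 3-fold, 83.6% in both lists, 61.6% with the local bound, 10.5% with AveD, 63.9% with stricter lists and 45.1% without sites at a missing number. That of lower sites, 59.7%, was 71.4% at 3-fold, 94.7% in both lists, 86.6% with a common starting density, 89.6% with the local bound, 48.2% with AveD and 85.0% with stricter lists.

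In settings added after seeing the data, the shares of middle strength listed in DNSnf2h with tetracycline kept their order. Matched on DNBrg1 density, they were 24.1% for higher and 54.1% for other sites, and in both lists 89.6% for lower sites. Sites flat in the other lines, 3 higher and 0 lower as deposited, were 4 and 24 with all lines centred, also added later. Where no cause follows from the setting itself, the cause was not tested. With 1 library a side and unknown depth, the limits on precision are the 26 to 45 tags of the weakest hotspots.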

Other observations

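Changed sites were spread over all 20 chromosomes. The share of higher sites ran from 4.71% on chromosome X (84 of 1784) and 5.02% on chromosome 13 (189 of 3765) to 9.99% on chromosome 10 (463 of 4633) and 10.7% on chromosome 17 (397 of 3695). The share of lower sites ran from 5.61% on chromosome X to 11.2% on chromosome 19, and lay between 8.68% and 11.2% on all chromosomes but X. Higher sites outnumbered lower ones on chromosomes 5, 10 and 17, at 500 against 471, 463 against 402 and 397 against 392. Chromosome 13 had 0.524 and chromosome 14 had 0.535 higher sites per lower site. The median log2 ratio of sites listed in both states ran from -0.04 on chromosome 14 to 0.08 on chromosome 7.

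Splitting of hotspots was rare. Of the sites listed in both DNCHD4 libraries, 755 were 1 hotspot before and several after induction, and 428 the reverse. Parental cells had 390 and 143 such sites.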
